A study of Mus musculus with 9 samples.

Results

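The 5 arrays labelled MMTV-Cre (Transplant), of 9 tumour arrays in the series, were chosen by that label alone, and no measured value entered the choice. Each compared genomic DNA of 1 mouse mammary tumour with DNA pooled from the tails of mice without tumours. Both DNAs came from mice of a mixed strain background. Per the labels and the series design, the mice carried floxed Rb and p53 alleles, and Cre recombinase was driven by MMTV, a promoter of mouse mammary tumour virus that works mainly in mammary epithelial cells. The titles call these samples primary tumours while the model label calls them transplants. The labels describe the tumours as independent, and do not say what was transplanted, into which hosts, or at what age. No tumour with intact Rb and p53 and no second array of normal DNA entered the comparison, so each ratio is read against 1 common pool. The question set by the series design is which copy number changes such tumours have in common.

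The retinoblastoma protein (Rb) holds cells before DNA replication by restraining E2F transcription factors, and p53 stops or kills cells whose DNA is damaged. Cells that lose both can divide with unrepaired or missegregated chromosomes. Array comparative genomic hybridisation reads the outcome as a ratio of tumour to reference DNA along each chromosome: a broad step is a gained or lost chromosome or arm, a narrow high peak is an amplification, and many steps on 1 chromosome mark a highly rearranged one.

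Tumour DNA was in the red (Cy5) channel and the pool in the green (Cy3) channel of a tiling array. It held 963261 distinct probes, and the 914119 autosomal ones lay at a median spacing of 1782 bp. Signal over local background was 21.8 to 29.7 for the pool and 14.9 to 17.8 for the tumours, as medians over the spots. The noise of a single probe was between 0.16 and 0.18 on the log2 scale. Values below are log2 ratios of tumour over pool from which each array's autosomal median was taken away, so that 0 is the middle of that tumour's own genome and not a known copy number. There was 1 array per tumour, and 5 arrays limit the precision of every mean. Transplants 1 and 2 were scanned on 1 date and transplants 3, 4 and 5 on another. Positions are as deposited. The array files state no build, and their probes are not paired with genes. Genes are therefore given by chromosome only, from the RefSeq table of mouse genes.

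The DNA removed by Cre should be missing from tumour cells, which checks the labels. A run of 4 neighbouring probes on chromosome 11, the chromosome of Trp53, from 69397121 to 69402566, held 30.4% of the signal ratio of its 20 flanking probes on each side in transplant 1. It held 40.0% in transplant 3, 36.2% in transplant 4 and 50.5% in transplant 5. It held 96.7% in the library labelled MMTV-Cre transplant 2. The run was thus low in 4 tumours and level with its flanks in the library labelled transplant 2. That would go against that label only if the run is DNA removed by Cre, which was not shown. The mean difference from the flanks was -1.11 ± 0.65 (SD, n = 5) on the log2 scale, and -1.37 ± 0.31 (SD, n = 4) without the library labelled transplant 2. The run was picked because it was low, at least 0.5 below its flanks in 4 or more tumours, so these values are a description with no test, and the files do not tie it to Trp53. The same search returned 1 other run of 4 probes, on chromosome 7 from 38970697 to 38975691, where the share of the flank ratio was 63.3%, 26.1%, 65.4%, 38.4% and 10.6% in transplants 1 to 5. There the library labelled transplant 2 was low like the others. The lowest pool signal in this chromosome 7 run was 6.22 times the autosomal median of the pool, against 0.476 in the chromosome 11 run. No run on chromosome 14, the chromosome of Rb1, was returned by this search. It needs 4 neighbouring probes low in 4 or more tumours, at a median probe spacing of 1782 bp, and can miss a shorter deletion. It therefore does not show whether Rb1 was deleted. The library labelled transplant 2 also had 1042 tumour-channel spots that were not well above background, against 303 to 363 in the other 4. Results that rest on it are given with and without it.

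Medians of whole chromosomes differed from the pool, and those of chromosomes 3, 5 and 15 were above 0 in all 5 tumours. On chromosome 3 the median log2 ratio was 0.14 in transplant 1, 0.75 in the library labelled transplant 2, 0.33 in transplant 3, 0.30 in transplant 4 and 0.13 in transplant 5. The library labelled transplant 2 was far above the rest, at a ratio of 1.68, and transplants 3 and 4 formed a middle level at ratios of 1.26 and 1.23. The mean was 0.33 ± 0.25 (SD, n = 5; limma adjusted p = 0.0351). In transplants 1 and 5 no autosome reached ±0.25, and autosome medians ran from -0.20 to 0.18 and from -0.16 to 0.19. Segments of even level at 0.25 or more covered 0.018% of chromosome 3 in each of these tumours. Chromosome 3 carries 6 genes of a list of mammary tumour oncogenes: Pik3ca, which encodes a catalytic PI3-kinase subunit, Prkci, a polarity kinase, Sox2, a stem cell transcription factor, Mcl1, an inhibitor of apoptosis, Nras, a signalling GTPase, and Rab25, a vesicle transport GTPase. It also carries Fbxw7, a tumour suppressor that marks cyclin E and Myc for degradation.

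Chromosome 5, home of Brca2 (DNA repair) and of Cdk6 (a kinase of the G1 phase), was at 0.08, 0.40, 0.15, 0.16 and 0.15 in transplants 1 to 5. Transplants 3, 4 and 5 nearly coincided, with the library labelled transplant 2 above them and transplant 1 below. The mean was 0.19 ± 0.12 (SD, n = 5; limma adjusted p = 0.0351). Chromosome 15, which carries Myc, a transcription factor that drives growth, its neighbour Pvt1, and Skp2, which marks the cell-cycle inhibitor p27 for degradation, was at 0.14, 0.43, 0.16, 0.02 and 0.19. Here transplant 4 was close to 0. Its autosomes that did not reach ±0.25 ran from -0.09 to 0.16, a range that includes chromosome 15 itself and has chromosome 5 at its upper end. The mean was 0.19 ± 0.15 (SD, n = 5; limma adjusted p = 0.0425). Segments of even level at 0.25 or more covered 0.13%, 99.9%, 0.13%, 5.87% and 10.4% of chromosome 5 in transplants 1 to 5. On chromosome 15 they covered 0.013%, 99.8%, 0%, 0% and 23.6%.

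**Figure D1:**
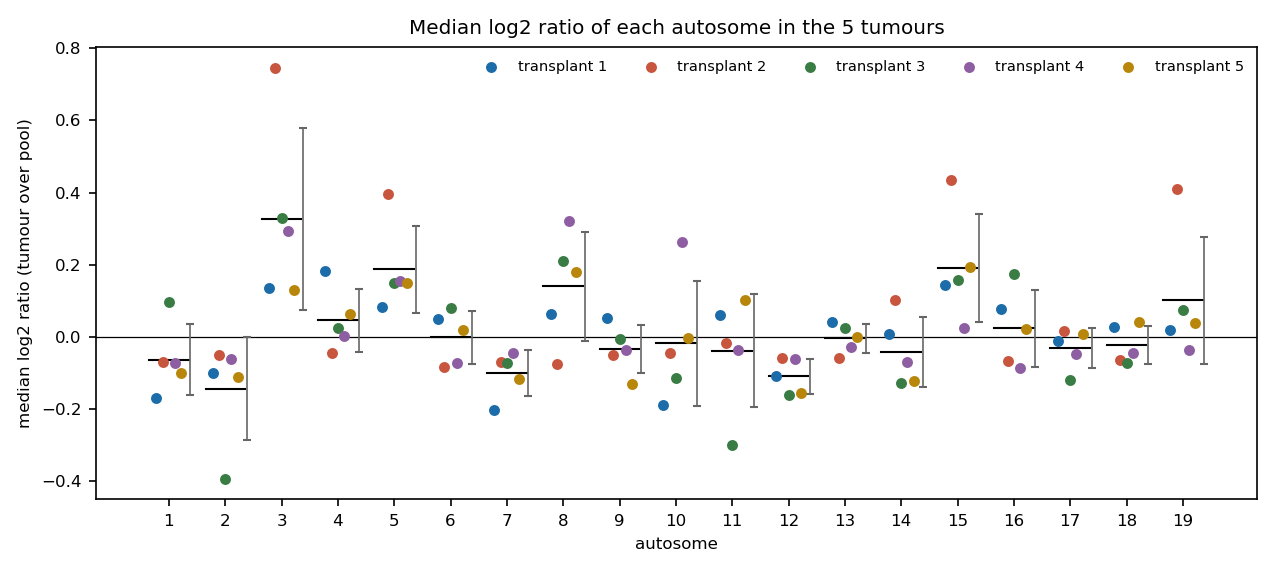
Median log2 ratio of tumour over pool for each autosome (x axis) in the 5 tumours, 1 coloured point per tumour. Black bars are the means and grey bars extend 1 SD on each side (n = 5). The 5 points lie above 0 on chromosomes 3, 5 and 15 and below 0 on chromosomes 2, 7 and 12, and the point of transplant 2 is the highest on chromosomes 3, 5, 15 and 19.

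These 3 calls, of 19 autosomes tested (15.8%), depended on the choices made. Centred on the mode of each array in place of the median, all 3 had an adjusted limma p of 0.0923, and leaving out transplant 1 or 3, or for chromosomes 5 and 15 also transplant 5, took the limma adjusted p to between 0.0595 and 0.133. Without the library labelled transplant 2 the means were lower but the spread shrank, to 0.22 ± 0.11 on chromosome 3, 0.13 ± 0.04 on chromosome 5 and 0.13 ± 0.07 on chromosome 15 (SD, n = 4), with adjusted limma p of 0.00225, 0.0211 and 0.0303. The exact two-sided sign-flip permutation over 5 tumours cannot go below 0.0625, which is the value all 3 chromosomes had (adjusted 0.198). By scan date, the mean of chromosome 3 was 0.44 ± 0.43 (SD, n = 2) in transplants 1 and 2 and 0.25 ± 0.11 (SD, n = 3) in transplants 3, 4 and 5. For chromosome 5 these were 0.24 ± 0.22 and 0.15 ± 0.0032, and for chromosome 15 0.29 ± 0.21 and 0.12 ± 0.09. Each was above 0 in every tumour of either date.

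Chromosomes 2, 7 and 12 were below 0 in all 5 tumours and did not pass the test. Chromosome 2, which carries the kinase gene Aurka, the transcription factor E2f1 and Rbl1, a relative of Rb1, was at -0.10, -0.05, -0.39, -0.06 and -0.11 (mean -0.14 ± 0.14, SD, n = 5; limma adjusted p = 0.0853). Most of that mean came from transplant 3. Chromosome 7, with Ccnd1 and Ccne1, which encode G1 cyclins, and the receptor genes Fgfr2 and Igf1r, was at -0.20, -0.07, -0.07, -0.04 and -0.12 (mean -0.10 ± 0.06, SD, n = 5; limma adjusted p = 0.0853). Chromosome 12 was at -0.11, -0.06, -0.16, -0.06 and -0.16 (mean -0.11 ± 0.05, SD, n = 5; limma adjusted p = 0.0826). In the library labelled transplant 2 chromosome 6 (-0.08) was lower than chromosomes 7 and 12, and in transplant 4 chromosome 16 (-0.09) was. The autosomes that did not reach ±0.25 ran from -0.08 to 0.10 in the former and from -0.09 to 0.16 in the latter. These ranges include chromosomes 7 and 12 themselves. Without the library labelled transplant 2, chromosome 2 (limma adjusted p = 0.0211) and chromosome 12 (0.0310) passed, and so did the higher level of chromosome 8, which carries the receptor gene Fgfr1 and Rbl2, another relative of Rb1. Chromosome 8 was at 0.06, -0.08, 0.21, 0.32 and 0.18, a mean of 0.14 ± 0.15 (SD, n = 5; limma adjusted p = 0.0853) over all 5 and of 0.19 ± 0.11 (SD, n = 4; limma adjusted p = 0.00463) without that library.

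**Figure D2:**
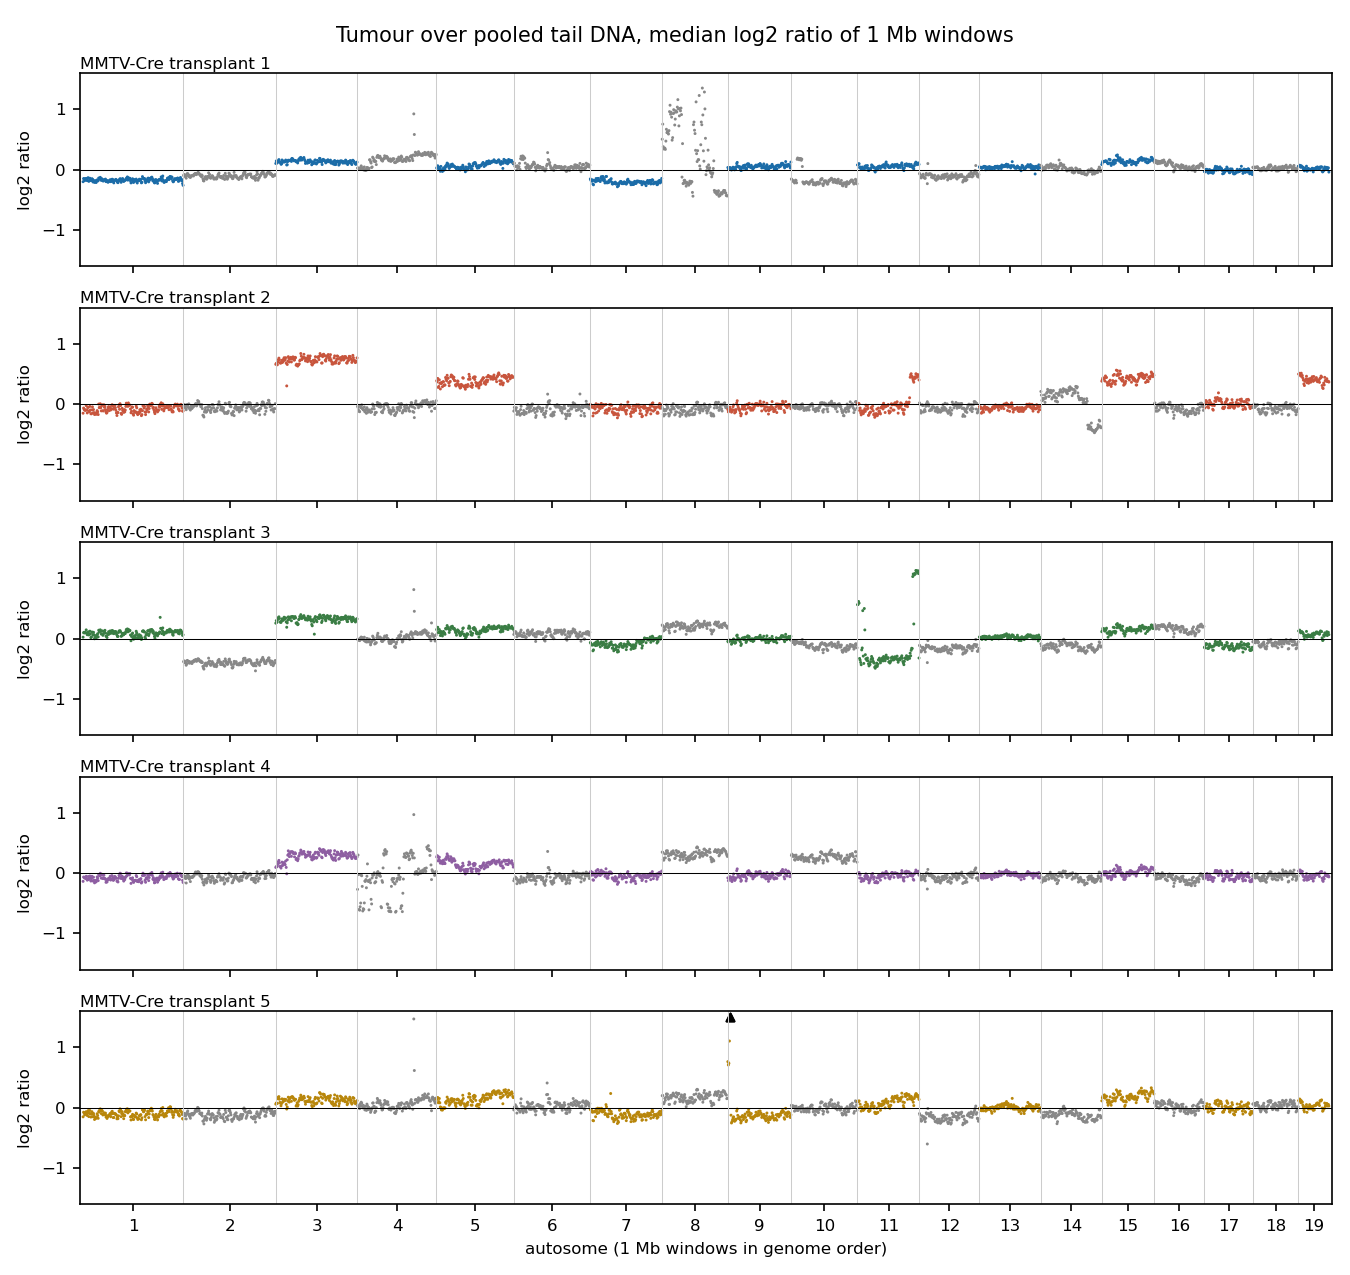
Median log2 ratio of tumour over pool in 1 Mb windows (points), in genome order over the 19 autosomes (x axis; odd autosomes coloured, even ones grey), 1 panel per tumour. Triangles at the upper edge mark windows above 1.5. Whole chromosomes are shifted in transplants 2, 3 and 4, while chromosome 8 of transplant 1 and chromosome 4 of transplant 4 change level many times.

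In 100 kb windows, limma called 1832 of 23354 higher than the pool (7.84%) and 968 lower (4.14%), 12.0% in all. The gained calls were crowded: 823 lay on chromosome 3, where they made up 53.2% of its windows, 606 on chromosome 5 (42.1%) and 284 on chromosome 15 (28.3%), together 93.5% of all gained calls. Of the lost calls, 302 lay on chromosome 12 (27.5% of its windows), 265 on chromosome 2 (15.1%) and 253 on chromosome 7 (19.7%), together 84.7%. Chromosome 8 had 47 gained calls and chromosome 19 had 0 in either direction. Windows of a chromosome move together in each tumour, so these counts follow the chromosome values above and are not independent of them. The calls lay just inside the threshold, with an adjusted p of 0.0447 in all 12 windows named here, and 8212 windows had an unadjusted p under 0.05. Limma called 0 windows with the arrays centred on the mode, 0 without transplant 1, 3 or 5, 3 without transplant 4, and 2344 gained and 1055 lost without the library labelled transplant 2.

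Of the called windows with 1 sign in all 5 tumours, those with the largest means included 4 on chromosome 3. The highest of these, starting at 51100001, was at 0.27, 0.92, 0.47, 0.45 and 0.30 in transplants 1 to 5 (mean 0.48 ± 0.26, SD, n = 5). It repeats the order of the whole chromosome, with the library labelled transplant 2 on top, and the windows starting at 103300001, 69000001 and 87800001 had means of 0.46, 0.45 and 0.45. The other 2 lay outside chromosomes 3, 5 and 15. The window on chromosome 1 starting at 90100001 was at 0.59, 0.26, 0.76, 0.73 and 0.96, and that on chromosome 12 starting at 115300001 at 1.09, 0.43, 0.68, 0.90 and 1.21. In the latter the pool signal was 0.0788 of the autosomal median, and with a normexp background correction its mean turned to -0.057. Among the lowest means, the window on chromosome 17 starting at 40400001 was at -0.23, -0.42, -0.37, -0.31 and -0.38 (mean -0.34 ± 0.07, SD, n = 5). Another, on chromosome 12 starting at 94400001, was at -0.24, -0.27, -0.39, -0.24 and -0.34 (mean -0.30 ± 0.07, SD, n = 5). The remaining 4, on chromosome 2 starting at 42200001, 141100001, 82000001 and 106300001, had means between -0.31 and -0.29, with transplant 3 the lowest in each.

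Segments of even level gave each tumour its own map. A segment was called gained at a log2 ratio of 0.25 or more and lost at -0.25 or less. By this rule 5.03% of the autosomal length was changed in transplant 1, 21.7% in the library labelled transplant 2, 18.8% in transplant 3, 16.6% in transplant 4 and 2.77% in transplant 5. At this threshold 3 tumours had much and 2 little change, with a mean of 13.0% ± 8.52 (SD, n = 5), or 10.8% ± 8.08 (SD, n = 4) without the library labelled transplant 2. Gain exceeded loss except in transplant 3. The gained length was 3.67%, 20.5%, 7.38%, 15.4% and 2.56%, and the lost length 1.36%, 1.14%, 11.5%, 1.15% and 0.215%. Counted in 100 kb windows, the gained shares were 3.55%, 20.8%, 7.52%, 15.5% and 2.58% and the lost shares 1.40%, 1.16%, 11.6%, 1.19% and 0.201%. In transplant 5, which had the least change, the chromosome 11 run also kept the most signal (50.5%) of the 4 tumours in which it was low. In transplant 1, which had the next least change, it kept the least (30.4%), against 40.0% in transplant 3 and 36.2% in transplant 4. The run thus did not follow the changed share over these 4 tumours. Whether tumour cell content sets these shares was not tested. The order depended on the threshold. At 0.15 the shares ran from 26.4% in transplant 5 to 39.1% in transplant 3 (mean 30.6%), with no such division and with transplant 1 above the library labelled transplant 2 (29.0%) and transplant 4 (26.7%). At 0.4 transplant 4 fell below transplant 1 (2.32%), and the library labelled transplant 2 was at 15.4%, transplant 3 at 4.51% and transplant 5 at 0.597%.

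Few of these segments lay in the same place in most tumours. Of 23354 windows, 32.7% were gained in at least 1 tumour and 15.5% lost in at least 1, but 49 (0.210%) were gained in 4 or more and 2 (0.00856%) lost in 4 or more. All 5 ratios share the pool, so a window where the pool itself differs from the mice of the study moves in every tumour at once. Gain in 3 or more tumours covered 1257 windows, 1180 of them on chromosome 3, where they made up 76.3% of its windows and the tumours were the library labelled transplant 2 and transplants 3 and 4. Without that library, 75 windows remained gained in 3 or more. Loss in 2 or more tumours was seen in 7 windows. In 335 windows 1 tumour was gained and another lost, 298 of these on chromosome 8, where transplant 1 was lost and transplant 4 gained.

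**Figure D3:**
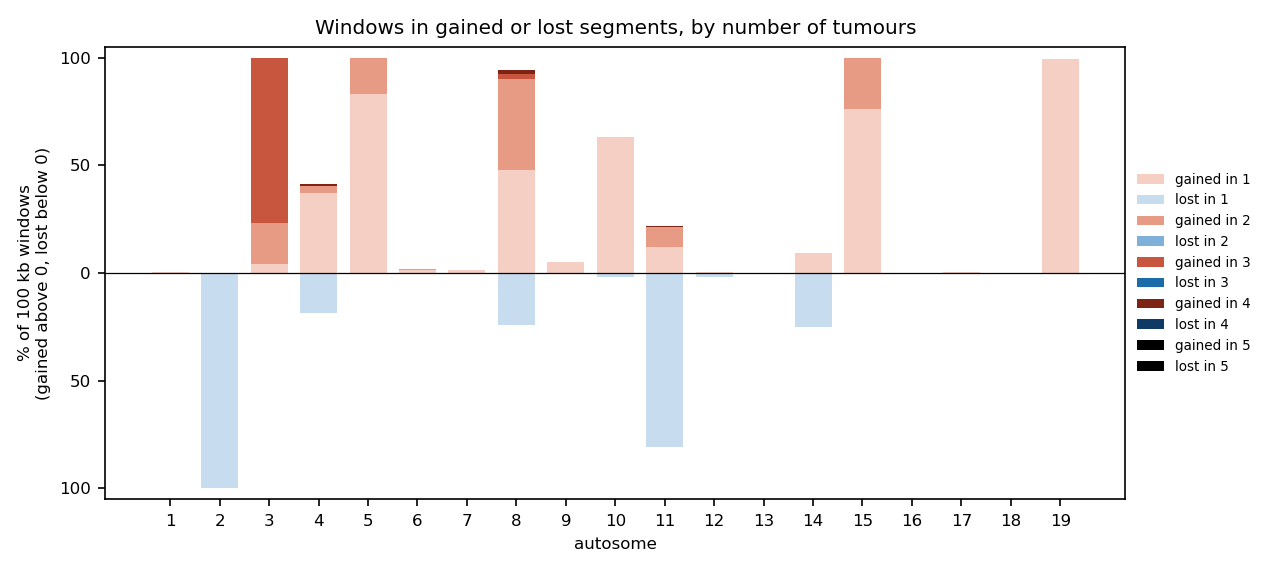
Share of the 100 kb windows of each autosome (x axis) that lay in gained segments (above 0) or lost segments (below 0), stacked by the number of tumours. Gain in 3 tumours covers most of chromosome 3, while the lost windows were nearly all lost in 1 tumour, 7 of them in 2 or more.

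The windows gained in 4 or more tumours lay on 9 autosomes. On chromosome 8, the stretches from 71200001 to 72500000 and from 74400001 to 75300000 were gained in transplants 1, 3, 4 and 5. In the first the mean was 1.097, 0.29, 0.37 and 0.26 in these 4 tumours and -0.0034 in the library labelled transplant 2, and in the second it was 0.37, 0.27, 0.39, 0.27 and 0.02 in the same order. Transplants 3 and 5 passed 0.25 there by a small margin, on a chromosome whose median was 0.21 and 0.18 in them. The stretches on chromosome 4 from 111700001 to 112300000 and from 112500001 to 113300000 were at 1.77 to 2.52 in transplants 1, 3, 4 and 5, and at -0.03 and -0.17 in the library labelled transplant 2. Their pool signal was 0.0167 and 0.0310 of the autosomal median, and the level of this locus was lost with a normexp background correction. Only 6 windows were gained in all 5 tumours. The pool signal was 0.181 of the autosomal median in those on chromosome 5 from 105000001 to 105200000, and 0.0116, 0.144 and 0.0788 in those on chromosomes 6, 7 and 12, starting at 41000001, 54900001 and 115300001. In the one on chromosome 11 starting at 3000001 it was 12.3, and the tumours were at 0.36, 0.37, 0.49, 0.33 and 0.42. Ordinary pool signal was found on chromosome 14 from 69900001 to 70100000 (1.13), where transplants 1, 3, 4 and 5 were gained at 0.33, 0.28, 0.34 and 0.48 and the library labelled transplant 2 was at 0.20. The 2 lost windows, on chromosome 2 from 77700001 to 77900000, were at -4.01, -1.28, -0.81 and -1.36 in transplants 1, 3, 4 and 5 and at 0.36 in the library labelled transplant 2, and there the pool signal was 12.3 times the autosomal median. Without the library labelled transplant 2 the count was 47. It was 6 without transplant 1, 4 or 5 and 8 without transplant 3, where a window gained in exactly 4 tumours drops out by construction.

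Transplant 1 had no autosome whose median reached ±0.25, and its changes were concentrated on chromosome 8. There 43.0% of the length was gained and 23.3% lost, in 70 segments of at least 100 kb. Counted in chosen ranges of level, 6 of these segments lay between -0.45 and -0.25, 11 between -0.25 and 0.15, and 10 between 0.15 and 0.45. Another 16 lay between 0.45 and 0.8, 19 between 0.8 and 1.2, and 8 above 1.2. No range from -0.45 up was empty, so separate levels were not shown. The first part of the chromosome was mostly gained, at 0.51 from 3104116 to 13882110 and at 0.92 from 16383010 to 42064095. Gained islands followed from 66481707 to 69638394 (0.72), 70431607 to 72509478 (0.86), 80580949 to 85326378 (0.94) and 86821491 to 89450925 (0.98). Between and after them lay lost stretches, from 64131518 to 66480073 (-0.43) and from 106333565 to 131708548 (-0.39). Over that last stretch transplant 4 was at 0.36, and transplants 3 and 5 at 0.23. In transplant 1, 9 intervals of chromosome 8 held segments at a log2 ratio of 1 or more, with means over these segments of 2.05-fold to 2.82-fold. The intervals were 300.2 kb to 2548 kb long and 12.8 Mb in all. These lengths include any gaps of up to 1 Mb between such segments. Outside chromosome 8, the longest change was a gain of 0.26 on chromosome 4 from 111796995 to 141223107.

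The library labelled transplant 2 had the opposite kind of genome, with whole chromosomes changed and few steps inside them. Chromosomes 3, 5, 15 and 19 were gained over at least 99.6% of their length, at medians of 0.75, 0.40, 0.43 and 0.41, while the other 15 autosomes had medians between -0.08 and 0.10. Chromosome 3 stood at nearly the same level from 3000029 to 24075542 (0.71) as from 24714504 to 159598830 (0.75). Chromosome 19 was gained in this library alone: the other 4 tumours were between -0.04 and 0.08. Chromosome 11 was gained in its distal part from 103570074 (0.46). Chromosome 14 stepped from gain, at 0.28 from 75846641 to 80396985, to loss, at -0.38 from 99139754 to 125178193.

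Transplant 3 had the most loss. Chromosome 2 was lost over 99.99% of its length at a median of -0.39, while the other 4 tumours were between -0.11 and -0.05. Chromosome 3 was gained over 95.1%. Chromosome 11, which carries Trp53, the repair gene Brca1, the RAS inhibitor gene Nf1 and the stress kinase gene Map2k4, was lost over 81.0% of its length. The main lost stretch, from 17296864 to 104190928, was at -0.35, and the other 4 tumours were between -0.06 and 0.09 there. At the near end of the chromosome it was broken by gains from 3030764 to 7002257 (0.58), 12573267 to 14380856 (0.48) and 16150090 to 17292993 (0.52). At the far end lay the longest amplified interval in these tumours, from 109197206 to 120731710, with high segments at a mean of 2.14-fold. It was not continuous, and joined separate gained stretches from 109197206 to 111363917 (1.07) and from 112190436 to 120662620 (1.11). A last lost stretch at -0.33 followed. Over the interval from 109197206 to 120731710 transplant 1 was at 0.09, the library labelled transplant 2 at 0.46, transplant 4 at -0.0016 and transplant 5 at 0.18. Chromosome 11 also carries the receptor genes Egfr and Erbb2, the adaptor gene Grb2 and the apoptosis inhibitor Birc5, and whether they lie in its gained or lost part was not determined.

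Transplant 4 had gains of moderate height over long stretches and 1 chromosome of alternating level. Chromosome 8 was gained over 92.5% of its length at a median of 0.32, chromosome 3 over 76.4% and chromosome 10, with Mdm2 (an inhibitor of p53) and Cdk4 (a G1 kinase), over 63.7%. On chromosome 3 the gain did not include the first part: up to 24075542 this tumour was at 0.14, against 0.31 beyond 24714504. Chromosome 10 was at 0.26, while the other 4 tumours were between -0.19 and -0.0029. Chromosome 4, the chromosome of the cell-cycle inhibitors Cdkn2a and Cdkn2b, had a median of 0.0018, but its 55 segments of at least 100 kb fell mostly into 3 of the chosen ranges of level. Of these, 15 segments with a median level of -0.60 covered 17.9% of the length, 24 with a median of -0.09 covered 55.5%, and 13 with a median of 0.30 covered 25.8%. The other 3 lay above 1.2, with a median of 2.16, and covered 0.450%. No segment lay between -0.45 and -0.25 or between 0.45 and 1.2. Low stretches included 6110972 to 9576397 and 12704193 to 16597347, both at -0.60, and 61649127 to 69415745 at -0.60. High stretches included 52588133 to 61638921 at 0.34 and 136860952 to 145022729 at 0.40. The other 4 tumours had no such alternation, and over 61649127 to 69415745 they were between -0.09 and 0.16.

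Transplant 5 had the smallest changed share of the genome and the highest long amplification. On chromosome 9, which carries Yap1, a transcriptional coactivator of growth, and Birc2 and Birc3, which hold back apoptosis, the interval from 6484696 to 9192736 had a mean of 3.46, or 11-fold. The interval was at 3.52 by its median in transplant 5 and at 0.03, -0.07, -0.03 and -0.06 in transplants 1 to 4. The whole stretch from 3102771 to 9192736 was raised in 5 segments, 1 of them of 2.89 Mb at 0.73. Which genes lie in the interval was not determined. Chromosome 9 as a whole was at a median of -0.13. On chromosome 7 a pair of short intervals was amplified in transplant 5 and called in no other tumour, from 6785641 to 6903754 (3.39-fold over 70 probes) and from 25604672 to 25747862 (3.48-fold over 85 probes). Their pool signal was 0.910 and 1.30 of the autosomal median, and the other 4 tumours were between -0.19 and 0.06 there. Its longer gains were low, at 0.25 on chromosome 5 from 110784051 to 126077114 and at 0.26 on chromosome 15 from 73192614 to 89700471, with 0.42 on chromosome 6 from 66590535 to 68178217.

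**Figure D4:**
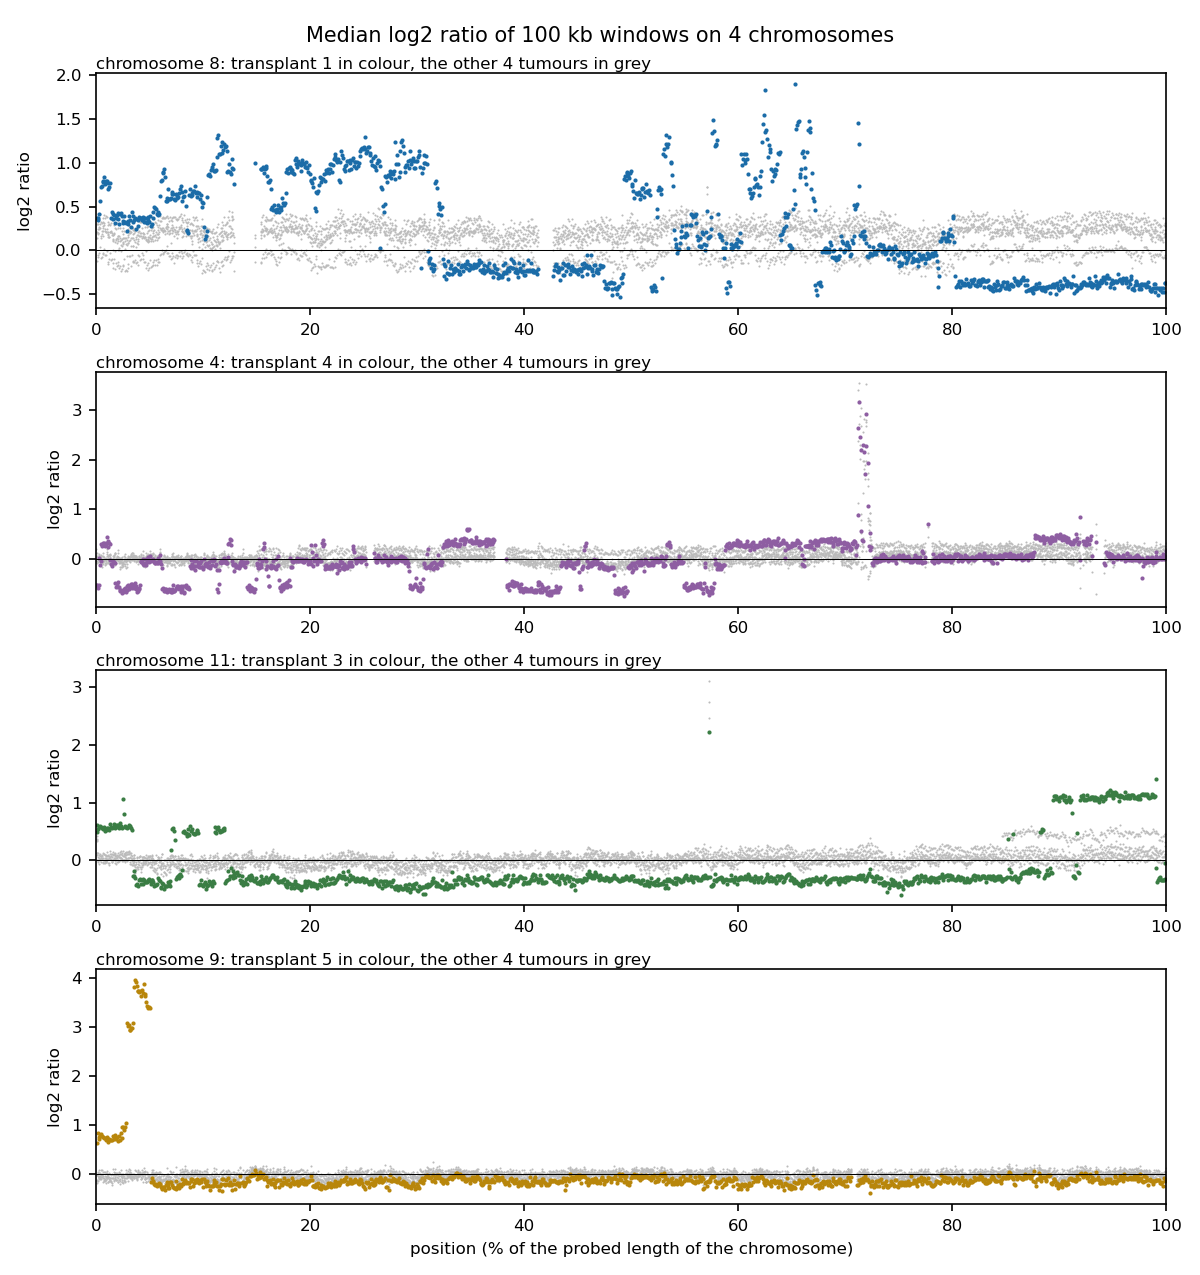
Median log2 ratio of tumour over pool in 100 kb windows along 4 chromosomes, by position as a percentage of the probed length. In each panel 1 tumour is coloured and the other 4 are grey: transplant 1 on chromosome 8, transplant 4 on chromosome 4, transplant 3 on chromosome 11 and transplant 5 on chromosome 9. The coloured tumour changes level many times on chromosomes 8 and 4, is low with a raised far end on chromosome 11, and is high at the near end of chromosome 9.

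Breakpoints, counted as steps of 0.2 or more between neighbouring segments, numbered 188 in transplant 1, 106 in the library labelled transplant 2, 124 in transplant 3, 148 in transplant 4 and 154 in transplant 5, a mean of 144 ± 31.2 (SD, n = 5). Many of these steps bordered short segments. With segments under 100 kb taken out the numbers were 83, 33, 38, 71 and 46. Of these, 59 of the 83 in transplant 1 lay on chromosome 8 (71.1%) and 50 of the 71 in transplant 4 on chromosome 4 (70.4%). Transplant 3 had 17 of 38 on chromosome 11 (44.7%). The others were more spread out: the fullest chromosome was 6 in the library labelled transplant 2, with 10, and 7 in transplant 5, with 11. Counted with short segments, the fullest chromosome was 4 in transplant 5, with 26 of 154, and 7 in the library labelled transplant 2, with 20 of 106.

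**Figure D5:**
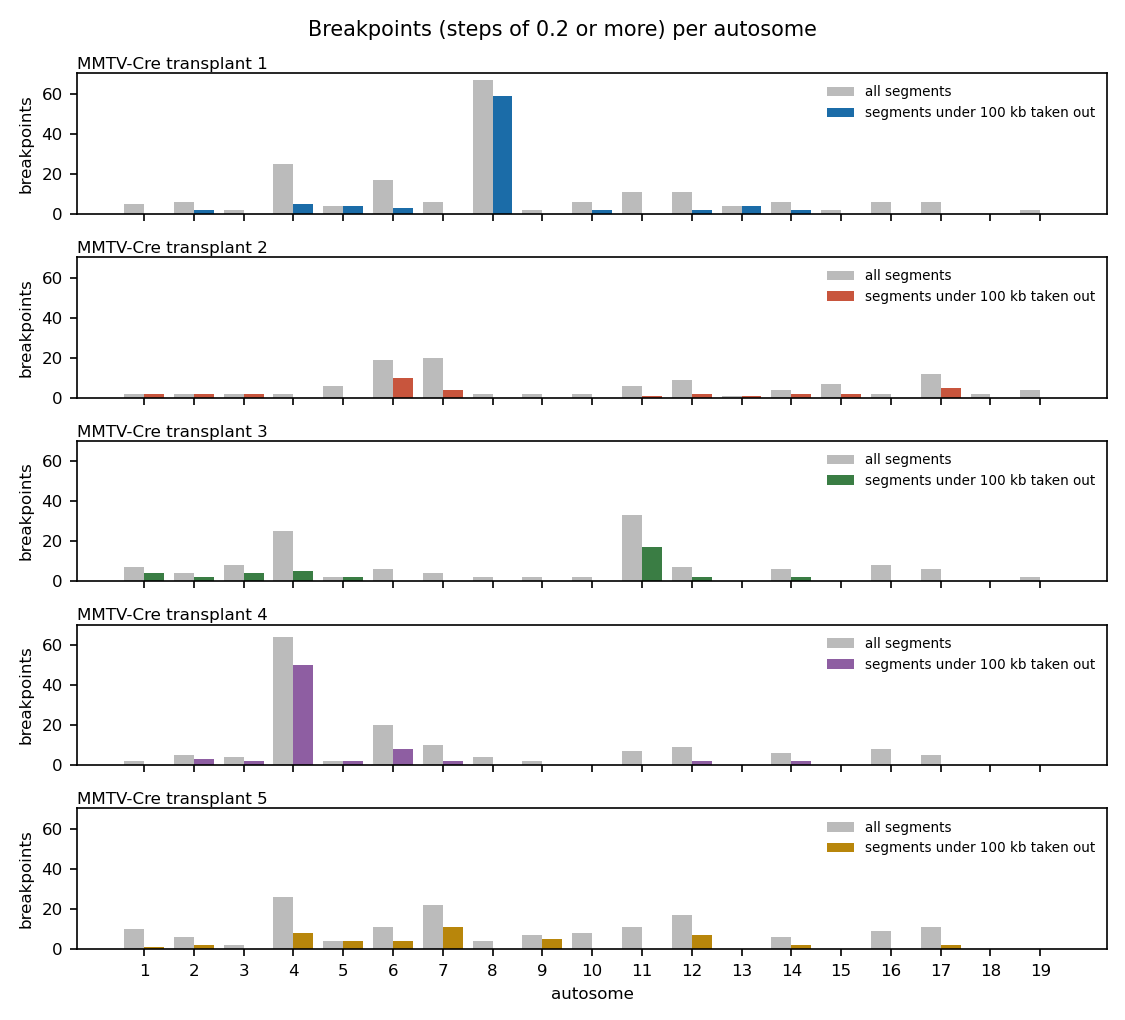
Number of breakpoints on each autosome (x axis), 1 panel per tumour, over all segments (grey) and with segments under 100 kb taken out (colour). Chromosome 8 of transplant 1 and chromosome 4 of transplant 4 stand out with 59 and 50 after short segments are taken out.

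Steps of 0.2 or more between long segments were counted separately, and any step beside a segment under 1 Mb was left out. Between segments of at least 1 Mb there were 11, 4, 6, 17 and 3 breakpoints in transplants 1 to 5, and in none of the 10 pairs of tumours were any of them within 50 kb of each other with the same sign. With breakpoints of all segments counted, 659 were shared over the 10 pairs, counted in the first tumour of each pair. In a pair this was 21.0% to 65.6% of the breakpoints of either tumour. How much was shared thus depended on which segments were counted. The edges of gained stretches, which need no step of 0.2, could coincide: on chromosome 3 a gained stretch ended at 41960655 in both transplants 3 and 4, beginning at 26389213 in the former and at 26233729 in the latter.

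High-level focal events, segments of at most 10 Mb at a log2 ratio of at least 1 or at most -1, numbered 35 gains and 1 loss in transplant 1, 15 and 13 in the library labelled transplant 2, 23 and 1 in transplant 3, 25 and 2 in transplant 4, and 33 and 2 in transplant 5. Of the 150 events, 21 were at least 300 kb long, and beside those of chromosomes 8, 9 and 11 described above these were repeats of 3 loci. The locus on chromosome 4 from 111739515 was called in transplants 1, 3, 4 and 5 (means of 2.31 to 2.73) and had a median of -0.15 in the library labelled transplant 2. With a normexp background correction the median of the whole locus went from 1.03, 1.14, 1.03 and 1.51 in these 4 tumours to 0.11, -0.013, 0.020 and 0.16. The locus on chromosome 12 from 115310451 to 116295289 was called in all 5, and that on chromosome 6 from 41018389 to 41422577 was long in the library labelled transplant 2 (3.16). In these 3 loci the high segments had a pool signal of at most 0.0609 of the autosomal median, so a small pool signal stands under each ratio. Over all tumours 85 of the 131 gains had high segments with a pool signal under 0.25 of that median. With such probes left out, 12, 2, 3, 2 and 7 gains remained in transplants 1 to 5, and 1, 12, 1, 2 and 2 losses. With a normexp background correction the mean number of gains per tumour was 5.2, against 26.2.

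The losses set the library labelled transplant 2 apart. It had 13, between 10.7 kb and 244 kb long with the lowest mean at -2.76, 7 of them on chromosome 7 and 3 on chromosome 5. Of these 13, 11 were called in no other tumour, and 12 losses were counted without probes of small pool signal. The count of 13 fell to 5 with a normexp background correction, to 5 with bins of 10 probes and to 9 where both channels had to be well above background. In the other 4 tumours the 6 losses fell on 3 loci: chromosome 2 from 77704022 to 77848292 (-4.14 in transplant 1, -1.30 in transplant 3 and -1.38 in transplant 5), chromosome 7 from 38962620 to 38983494 and chromosome 7 from 26790284 to 26981899. Their pool signal was 14.1, 7.86 and 0.833 times the autosomal median, in this order. The locus from 38962620 contains the chromosome 7 run from 38970697 to 38975691 given above, so these are 1 locus.

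Short loci as a whole, 111 in number, showed the same division. There were 10 called in all 5 tumours, 19 in 4 and 64 in 1. Of the 19, 15 were called in transplants 1, 3, 4 and 5 and not in the library labelled transplant 2, 13 of them gains, and 4 were missing from transplant 3 alone. Examples of the former are chromosome 16 from 36254602 to 36388513 and chromosome 11 from 70986356 to 71112653, gained in transplants 1, 3, 4 and 5. Their pool signal was 0.0326 and 0.0254 of the autosomal median, so a small pool signal stands under these ratios. It was not small in all 15: on chromosome 1 from 90110130 to 90209508 it was 1.68. Examples of loci lost in the library labelled transplant 2 alone are chromosome 12 from 53140924 to 53168014 and chromosome 15 from 77229298 to 77374355. Whether the mouse behind this library differs in strain from the other 4 was not tested.

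Genes of the list could be placed on chromosomes only. Of 31 oncogenes, 10 (32.3%) lie on chromosomes 3, 5 and 15, which passed the test above 0, as do 3 of 16 tumour suppressor and repair genes (18.8%: Fbxw7, Brca2 and Kmt2c) and 14.7% of 20665 protein-coding genes of the autosomes. No gene of either list lies on an autosome that passed the test below 0, since none did. Of the oncogenes, 6 lie on chromosomes 2, 7 and 12, which were below 0 in all 5 tumours, as does Rbl1 of the suppressors. Genes of a chromosome share its value, so these counts describe 3 chromosomes and not 10 genes. The lists were chosen with earlier results of these data known, so 32.3% beside 14.7% is a description and no evidence of an excess.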

How the data were processed

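Spot intensity was measured with Agilent Feature Extraction 10.5.1.1 on array design 027414, per the file headers. The deposited processed signals are intensity values after background subtraction and linear dye normalisation, per the file headers, and the authors' series table holds log10 ratios of red over green that equal the scanner files' ratios. The genome build is not given in the sources used here. Spots flagged as outliers, or not well above background in the pool channel, were left out (1793 to 2115 of 967261 probe spots per array). The other 4 columns of the series table were not used.

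From log2 ratios of the processed signals the autosomal median was taken away, array by array. Medians of 5 probes were segmented by penalised least squares (PELT, penalty factor 10, at least 2 bins), and events within 1 Mb were merged. Windows of 100 kb with at least 3 probes, and autosome medians, were tested against 0 (limma 3.58.1, R 4.3.3), and p-values were adjusted by Benjamini and Hochberg's method at a threshold of 0.05. The ratio leaves out the spread of control DNA. Short loci were neighbouring short segments at ±0.5 or more, joined within 100 kb. Segmentation and the window test were each tried on simulated data with independent noise. Those data had no probes of small pool signal and no windows that move together, and the calling of short loci was not simulated. Windows were named by a rule: at least 20 probes, past the threshold, 1 sign in 5 tumours, the 6 largest means in each direction, at most 1 per 10 Mb. Events of at least 300 kb were named. Members, lists and rules were chosen with earlier results of these data known. Alternatives were a normexp correction (offset 50), loess within the array, mode centring, other filters, windows, thresholds and penalties, scan date, and each tumour left out. Leaving out probes of small pool signal and segments under 100 kb was chosen after seeing the data. Python 3.11.15, numpy 2.4.6, pandas 2.3.3, numba 0.67.0 and matplotlib 3.10.9 were used.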

Additional observations from a re-analysis of the deposited data

Results flagged for a closer look

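Among 27 sets of 5 values (autosome medians, genome-wide summaries and weak spots), 6 had 1 tumour farther from the others than a Dixon test at the 95% level allows. Chance flags about 1 in 20 independent sets, and these sets overlap. The library labelled transplant 2 was the far value for the median of chromosome 5 (0.40, the nearest other tumour 0.16), the median of chromosome 19 (0.41, nearest 0.08), the number of high-level losses (13, nearest 2) and the tumour-channel spots not well above background (1042, nearest 363).

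Transplant 3 was the far value for the median of chromosome 2 (-0.39, nearest -0.11) and for the share of the autosomal length lost (11.5%, nearest 1.36%). The share lost includes chromosome 2.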

How the results depend on the processing

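The directions of chromosomes 2, 3, 5, 7, 12 and 15 held under the alternatives run, while calls did not. Chromosome 8 was at -0.0056 within the first scan date and stayed above 0 with 1 tumour left out. The means of chromosomes 6, 10, 11, 13 and 16 changed sign with 1 tumour left out. With mode centring the means of chromosomes 3, 5 and 15 were 0.32, 0.18 and 0.19 (limma adjusted p = 0.0923 each), and under the exact sign-flip permutation (0.33, 0.19 and 0.19) the adjusted p was 0.198. Leaving out 1 tumour gave 0.22 to 0.38 for chromosome 3, 0.13 to 0.21 for chromosome 5, 0.13 to 0.23 for chromosome 15, -0.17 to -0.081 for chromosome 2 and -0.12 to -0.10 for chromosome 12.

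Gained and lost window calls were 0 and 0 with mode centring and with 1 Mb windows, 3884 and 3056 with scan date as a random block, 1024 and 11 within the first date, and 0 to 2344 and 0 to 1055 with 1 tumour left out. With at least 20 probes per window 499 were lost.

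The mean changed share was 30.6% at a threshold of 0.15. Mean breakpoints, 144 as reported, were 59.8 with normexp, 225 with no filter on spots, 66 without probes of small pool signal, 217.6 and 101.2 with penalty factors 5 and 20, 93.6 with bins of 10 probes and 54.2 with segments under 100 kb taken out. Mean focal gains, 26.2 as reported, were 5.2 with normexp and also without probes of small pool signal, 53.4 with no filter and 10 with bins of 10 probes.

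Windows gained in 4 or more tumours, 49 as reported, numbered 1226 with normexp, 25 with mode centring, 30 with loess, 1774 and 23 at thresholds of 0.15 and 0.4, 19 with segments of at least 1 Mb and 6 to 47 with 1 tumour left out. Windows lost in 4 or more, 2 as reported, numbered 6 with loess, 6 with penalty factor 5, 120 at 0.15, 0 with segments of at least 1 Mb and 0 to 2 with 1 tumour left out. Counting all breakpoints, 659 were shared over the 10 pairs (21.0% to 65.6% of a tumour's breakpoints in a pair), against 0 between segments of at least 1 Mb.

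With normexp the window of chromosome 12 starting at 115300001 turned to -0.057 and the chromosome 4 locus of transplant 3 to -0.013. The cause of these changes was not tested. No paired analysis was possible because the labels put these 5 tumours in 1 group with no shared replicate numbers.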
